A study of Mus musculus with 12 samples.

Results

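The CDC-like kinases (CLK) and the SR protein kinases (SRPK) were followed through 24 h in CD8+ T cells, the cytotoxic lymphocytes, of mouse lymph nodes. The 6 genes Clk1, Clk2, Clk3, Clk4, Srpk1 and Srpk2 were taken by name from the 50600 gene identifiers of the files, and all 6 passed the filter on low counts. The cells came from male C57BL/6J mice aged 8 weeks held in constant darkness, so that time of day came from the animals' own clock. The 6 circadian times (CT) were 2, 6, 10, 14, 18 and 22 h, each sampled on 2 days. Each time therefore had 2 libraries of polyadenylated RNA, and there were 12 in all. By the labels, the groups differ in time and day alone. The subjective night, when mice are active, is CT14, CT18 and CT22, and the subjective day is CT2, CT6 and CT10. The number of mice behind each sample is not labelled, and the p-values cover the spread between samples, which may be technical.

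Both kinase families phosphorylate SR proteins, the splicing factors that carry long runs of arginine and serine and choose exons in pre-mRNA. SRPK1 and SRPK2 act mainly in the cytoplasm, where their phosphorylation lets SR proteins be imported into the nucleus. The CLK kinases act in the nucleus, where further phosphorylation releases SR proteins from speckles to sites of splicing. CLK activity is known to be higher at lower temperature within the range of mammalian body temperature, which makes these kinases sensors that couple the daily temperature cycle to splicing. That sensing is a property of the enzyme, and the measurements here are of its mRNA.

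The 4 CLK genes are recognised by a stretch of the kinase domain that gives the family its other name, the LAMMER kinases. It is printed from the coding sequence of 1 GENCODE M21 transcript per gene on GRCm38, with the codons of the LAMMER motif or of its Clk3 counterpart in capitals. It lies at chr1:58412979-58413011 (minus strand) in Clk1, chr3:89175407-89175439 (plus strand) in Clk2, chr9:57752147-57752179 (minus strand) in Clk3 and chr11:51280373-51280405 (plus strand) in Clk4, in a single coding exon each time.
Clk1: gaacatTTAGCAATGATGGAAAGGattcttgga
Clk2: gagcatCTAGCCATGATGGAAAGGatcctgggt
Clk3: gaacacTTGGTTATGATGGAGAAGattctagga
Clk4: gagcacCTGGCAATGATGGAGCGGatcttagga
Of the 33 bases, Clk2 shared 27 with Clk1, Clk3 shared 26 and Clk4 shared 24. No such stretch was found in the coding sequences of Srpk1 or Srpk2.

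CLK genes are also known for regulating their own mRNA by skipping an exon, which shifts the reading frame and marks the transcript for decay. In Clk1, Clk2 and Clk4 the annotation holds transcripts of the nonsense-mediated decay class that lack exon 4 (of 13), and this exon is printed because the transcript lengths reported further on respond to such changes. It lies at chr1:58420121-58420211 (minus strand) in Clk1, chr3:89169618-89169702 (plus strand) in Clk2 and chr11:51273078-51273168 (plus strand) in Clk4. Capitals in Clk4 mark the bases that differ from Clk1.
Clk1: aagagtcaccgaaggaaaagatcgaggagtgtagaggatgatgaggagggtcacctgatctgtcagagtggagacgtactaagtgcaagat
Clk4: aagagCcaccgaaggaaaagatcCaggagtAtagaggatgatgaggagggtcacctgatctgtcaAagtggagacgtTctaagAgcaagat
Clk2: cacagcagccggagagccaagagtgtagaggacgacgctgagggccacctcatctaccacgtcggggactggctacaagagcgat
The exon is 91 bases long in Clk1 and Clk4, of which 85 are the same, and 85 bases long in Clk2. Neither length is a multiple of 3, so skipping it moves the frame in all 3 genes. In Clk4 the annotation also holds a transcript classed as protein coding, Clk4-203, that lacks this exon together with exon 2.

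The 6 genes lie on separate chromosomes. In GENCODE M21 on GRCm38, Clk1 spans chr1:58410189-58424066, Clk2 chr3:89164795-89176921, Clk3 chr9:57750624-57765860, Clk4 chr11:51261730-51281766, Srpk1 chr17:28587648-28622709 and Srpk2 chr5:23503264-23684617. The annotation lists 13 transcripts for Clk1, of which 1 codes for protein and 7 retain an intron. Clk4 has 14, of which 4 code for protein and 7 retain an intron. Clk3 overlaps Edc3, Clk4 overlaps BC049762 and Srpk2 overlaps Kmt2e on the opposite strand. On the same strand, where strand does not separate reads, Clk4 overlaps Gm25082 and Srpk2 overlaps Gm24009 and Gm43566. The counts used here were stranded, and the opposite strand held 9.23% to 11.9% of the reads over Srpk2 exons, 5.49% to 8.02% over Clk3 and under 5% over the others.

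Library depth ranged from 24689964 to 33497078 counts on genes. The lowest count of any member in any library was 2699 (Clk2) and the highest 12218 (Clk1). The CD8 T cell markers Cd8a, Cd8b1, Cd3e, Cd3d, Cd3g and Trac together stood at 4309 to 5394 CPM (counts scaled to library size with TMM factors). The marker sum of monocytes and macrophages (10 of 10 genes measured) ran from 276 to 1198 CPM. The library of CT2 on day 1 stood apart. The 2 libraries of CT2 differed from each other by a chi-square of 40.5 per degree of freedom over genes, against 3.08 to 10.6 at the other times. Of 10153 genes averaging 5 CPM or more, 24.6% were lowest and 22.3% were highest in the day 1 library of CT2. The night and day difference, the spread and the correlations of the kinases, save those within night or day, are also given without it.

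Clk1 was the most abundant kinase mRNA per transcript length and Srpk2 the least. In TPM (transcript levels scaled to length, which can be set side by side between genes), Clk1 averaged 293 ± 16.6, Srpk1 136 ± 11.6, Clk4 99.1 ± 7.15, Clk2 72.6 ± 7.24, Clk3 66.1 ± 8.42 and Srpk2 39.9 ± 4.56 (SD, n = 12 each). Each gene in this order exceeded the next in 12 of 12 libraries, save that Clk2 exceeded Clk3 in 11 of 12. All 5 neighbouring differences were larger than their spread. The exact two-sided sign-flip permutation test gave p = 0.000488 for 4 of them (adjusted p = 0.00061), the smallest p that 12 libraries allow, and p = 0.00146 for Clk2 over Clk3 (adjusted p = 0.00146). Clk2 and Clk3 were the closest neighbours, 0.14 ± 0.10 apart on the log2 scale (SD, n = 12). Clk1 alone supplied 41.5% ± 1.27 of the summed TPM of the 6 kinases (SD, n = 12), and the sum was 706 ± 50 TPM (SD, n = 12). The closely related pair Clk1 and Clk4 kept a ratio of 2.96 ± 0.14, and Srpk1 and Srpk2 a ratio of 3.41 ± 0.21 (SD, n = 12 each).

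**Figure D1:**
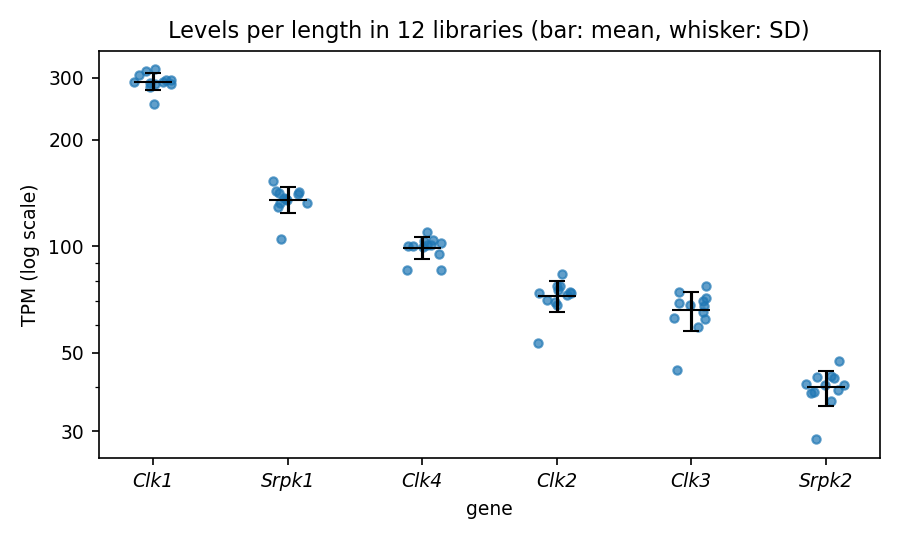
Level of each kinase mRNA in TPM (log axis), ordered by mean. Points are the 12 libraries, the bar is the mean and the whisker the SD. Clk1 sits between 252 and 317 TPM and Srpk2 between 28.5 and 47.6 TPM, with no overlap between these ends of the order.

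Clk1 was also the steadiest of the 6. It had 365 and 377 CPM at CT2, 374 and 366 CPM at CT6, 385 and 372 CPM at CT10, 378 and 370 CPM at CT14, 396 and 373 CPM at CT18, and 373 and 356 CPM at CT22 (day 1 and day 2 of each time). No time stood clear of the others. The coefficient of variation of CPM over the 12 libraries was 2.74%, and 0.758% of the 10153 genes varied less. In TPM it was 5.66%, with the day 1 library of CT2 the lowest, and its place among all genes was not computed. Clk4, the closest relative of Clk1, lay between 111 and 128 CPM with a median of 120 CPM and a coefficient of variation of 4.01%, which 7.02% of genes undercut. The other 4 members had coefficients of variation of 5.43% (Clk3), 5.96% (Srpk1), 6.03% (Srpk2) and 7.04% (Clk2), nearer to the median of 7.46% over all these genes. Without the day 1 library of CT2 the coefficients were 2.77% for Clk1, 4.20% for Clk4, 4.58% for Clk3, 4.77% for Srpk2, 4.93% for Srpk1 and 5.34% for Clk2, against a median of 6.34%. Clk1 was still the lowest, with 2.61% of genes varying less. But Clk4 then lay close to the other 4, with 17.8% of genes varying less. These ranks set each kinase against all genes averaging 5 CPM or more, not against genes of like level. Clk1 averaged 374 CPM, and the part of count depth in its rank was not tested.

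Clk2 had 100.3 and 128.0 CPM at CT2, 110.7 and 120.7 CPM at CT6, 131.5 and 117.4 CPM at CT10, 123.9 and 114.7 CPM at CT14, 117.1 and 124.2 CPM at CT18, and 116.6 and 113.7 CPM at CT22 (day 1 and day 2). The 2 libraries of CT2 lay at opposite sides of most others. Clk3 lay between 105 and 128 CPM with a median of 117 CPM. Both genes were lowest in CT2 and highest in CT10 of day 1.

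Srpk1, the more abundant cytoplasmic kinase, had time means of 297 ± 29.9 CPM at CT2, 309 ± 11.7 CPM at CT6, 339 ± 19.0 CPM at CT10, 317 ± 9.29 CPM at CT14, 306 ± 6.93 CPM at CT18 and 302 ± 8.00 CPM at CT22 (SD, n = 2 each). Its lowest library was again CT2 and its highest CT10, both of day 1. Srpk2 had 121.2 and 145.3 CPM at CT2, 141.9 and 142.6 CPM at CT6, 153.8 and 146.9 CPM at CT10, 134.9 and 132.8 CPM at CT14, 134.8 and 136.5 CPM at CT18, and 133.9 and 136.1 CPM at CT22 (day 1 and day 2). In CPM the day 1 library of CT2 was thus the lowest of 12 for 4 of the 6 kinases. The day 1 library of CT10 was the highest for the same 4. Of the 10153 genes averaging 5 CPM or more, 24.6% were lowest in the former library and 18.3% were highest in the latter. Monocyte and macrophage markers summed to 820 CPM in the day 1 library of CT2, 286 CPM in the day 2 library of CT2 and 276 CPM in the day 1 library of CT10. At CT2 the sums on day 1 and day 2 were 255 and 138 CPM for B cells and 569 and 332 CPM for dendritic cells. They were 33.1 and 11.3 CPM for neutrophils, 40.4 and 27.4 CPM for NK cells and 108 and 84.9 CPM for CD4 T cells. CD8 T cell markers summed to 5194 and 5394 CPM, and stroma and endothelium markers to 171 CPM on both days. The part of these cell types in the kinase values was not tested.

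**Figure D2:**
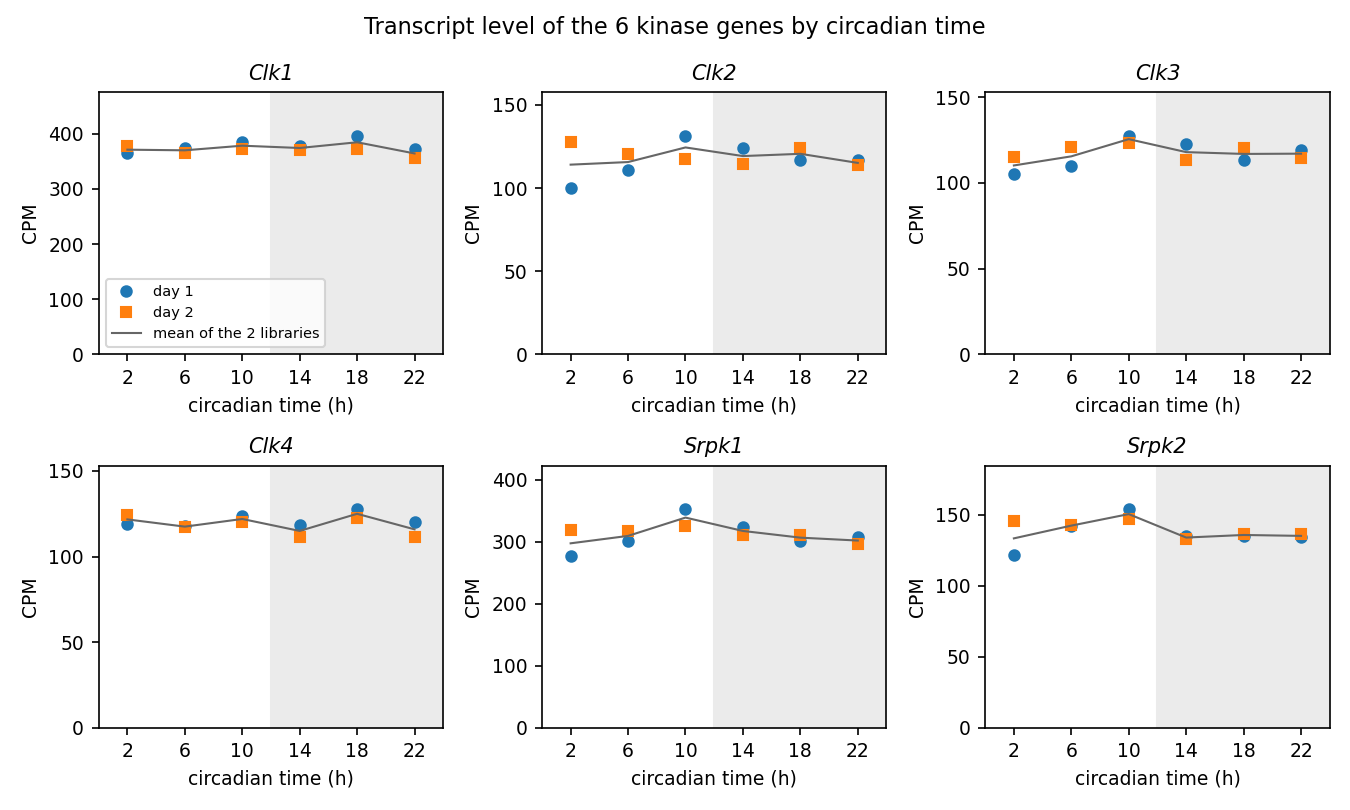
CPM of each kinase gene against circadian time in hours, with day 1 as circles, day 2 as squares, a line through the mean of the 2 libraries and the subjective night shaded. All axes start at 0, and no gene differs by more than 1.31-fold between its highest and lowest library.

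None of the 6 kinases followed a 24 h wave at the threshold used. Amplitudes (log2 distance from mean to peak, with SE) were 0.02 ± 0.02 for Clk1, 0.05 ± 0.04 for Clk2, 0.06 ± 0.03 for Clk3, 0.005 ± 0.03 for Clk4, 0.08 ± 0.03 for Srpk1 and 0.07 ± 0.03 for Srpk2, and the median of all 16396 genes tested was 0.10. In the quasi-likelihood test of edgeR, with p-values adjusted over all genes by Benjamini-Hochberg, 0 of 6 members passed an adjusted p of 0.05, and so did 0.0% of all genes. At an unadjusted p under 0.05, 0 of 6 members passed, against 13.3% of all genes. DESeq2 and limma also passed 0 of 6, with 1.5% and 0% of all genes passing (limma on log2(TPM + 1)). The smallest p was that of Srpk1, with an estimated peak at 11.2 ± 1.5 h (SE, adjusted p = 0.406). Each amplitude was within 3 of its SE, and waves of this size were not detectable in 12 libraries at the threshold used.

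A test that allows any shape over the 6 times also passed 0 of 6 kinases, with 0.256% of all genes passing (edgeR, adjusted p of 0.05). At an unadjusted p under 0.05 the counts were 0 of 6 members and 12.7% of all genes. DESeq2 and limma passed 0 of 6, with 3.15% and 0.0671% of all genes passing (limma on log2(TPM + 1)). The highest and lowest time means differed by 0.08 log2 for Clk1 and by 0.12 to 0.19 log2 for the other 5, against a median of 0.34 log2 over all genes. Srpk2 had an adjusted p of 0.599 in edgeR's test with all 12 libraries. Without the day 2 library of CT2, which leaves the day 1 library as the lone sample of that time, its adjusted p was 0.0344 with a range of 0.31 log2, in a fit that passed 10.2% of all genes. Over the alternatives of this test the adjusted p of Srpk2 ran from 0.0344 to 0.988.

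CT14 was examined because heat-inducible chaperone genes stand high there. Hsph1, an HSP110 chaperone, had 332.9 and 366.1 CPM at CT14, against 90.0 to 160.2 CPM in the 10 other libraries. No kinase passed the test there. Between CT14 and the mean of the other times, Clk1 differed by 0.002 ± 0.05 log2, Clk2 by 0.02 ± 0.08, Clk3 by 0.01 ± 0.06, Clk4 by -0.07 ± 0.05, Srpk1 by 0.03 ± 0.06 and Srpk2 by -0.06 ± 0.06 (SE). In edgeR's test 0 of 6 members passed, with 1.13% of all genes passing. At an unadjusted p under 0.05 the counts were 0 of 6 and 13.2%. DESeq2 and limma passed 0 of 6, with 2.1% and 0.201% of all genes passing (limma on log2(TPM + 1)). The intervals of 2 SE reached from -0.17 to 0.18 log2 over the 6 members, so a change at CT14 of the size seen for Hsph1 (1.498 ± 0.06 log2) lay far outside them.

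Between subjective night and subjective day, 5 of the kinases overlapped widely and Srpk2 came closest to a difference. Srpk2, the less abundant SR protein kinase, had 132.8 to 136.5 CPM in the 6 night libraries (median 134.9 CPM), against 121.2 to 153.8 CPM in the 6 day libraries (median 144 CPM). The night libraries all lay below 5 of the day libraries, which ran from 141.9 to 153.8 CPM, and above the remaining one, CT2 of day 1. With all 12 libraries Srpk2 differed by -0.07 ± 0.04 log2 (SE), which did not pass edgeR's test (adjusted p = 0.4035). Without the day 1 library of CT2 the difference was -0.11 ± 0.03 log2 and passed (adjusted p = 0.0240), in a fit where 10.4% of all genes passed. Without both CT2 libraries it was -0.12 ± 0.03 log2 (adjusted p = 0.0302, 7.61% of all genes passing). Without the day 2 library of CT2 it was -0.03 ± 0.03 log2 (adjusted p = 0.630, 7.01% of all genes passing). Over all 22 alternatives the difference ran from -0.12 to -0.03 log2 and the adjusted p from 0.0240 to 0.852, so the call depends on how CT2 is treated.

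Clk1 averaged 374 ± 13.2 CPM at night and 373 ± 7.53 CPM by day (SD, n = 6 each). Night minus day was 0.004 log2 for Clk1, 0.004 for Clk2, 0.005 for Clk3, -0.02 for Clk4 and -0.03 for Srpk1, with SE of 0.04 to 0.06, and for Clk1, Clk2, Clk3, Clk4 and Srpk1 the sign changed under at least 1 alternative. In edgeR's test 0 of 6 kinases passed with all 12 libraries, against 1.64% of all genes. At an unadjusted p under 0.05 the counts were 0 of 6 and 18.5%. DESeq2 and limma passed 0 of 6, with 3.18% and 0.128% of all genes passing (limma on log2(TPM + 1)). Night and day libraries were separate without overlap for 0 of 6 kinases and for 1.88% of all genes. Without the day 1 library of CT2 they were separate for Srpk2 alone among the 6, with night below day, as for 3.11% of all genes. In bulk RNA, fewer cells of a type and less RNA per cell cannot be told apart. Stroma and endothelium markers (5 of 6 measured) summed to 139 to 157 CPM at night and 164 to 180 CPM by day, without overlap. That sum was mostly Pecam1, which averaged 146 CPM and was lower at night (-0.23 ± 0.04 log2, adjusted p = 0.0206), while the other 4 markers averaged 0.756 to 6.11 CPM and differed by -0.05 to 0.10 log2 without passing. Monocyte and macrophage markers summed to 475 to 1198 CPM at night and 276 to 820 CPM by day. Their part in the Srpk2 values was not tested.

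**Figure D3:**
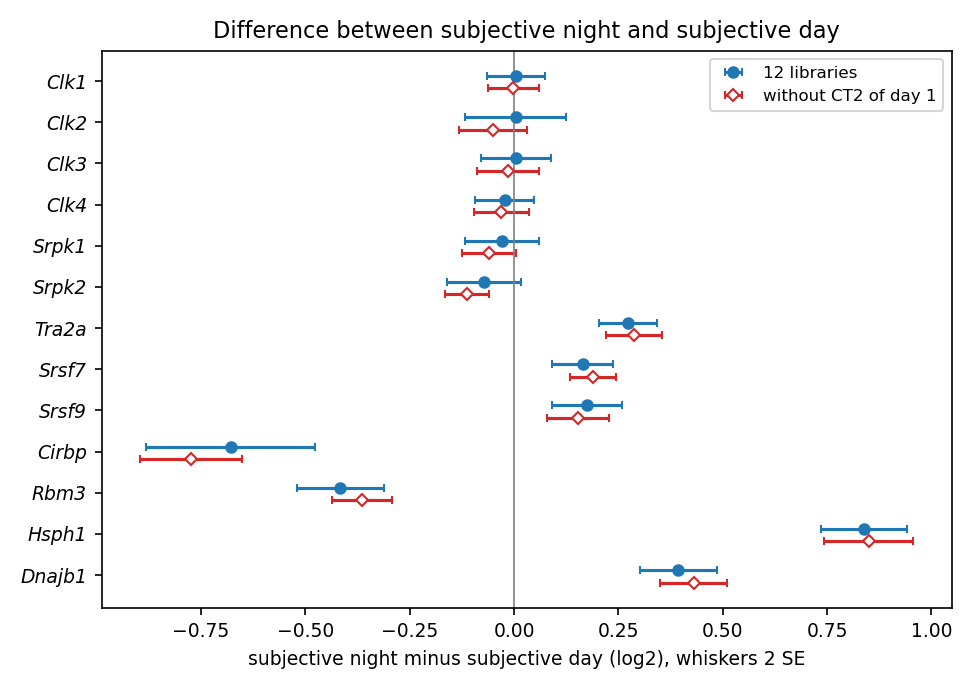
Difference between subjective night and subjective day on the log2 scale, with whiskers of 2 SE, for the 6 kinases, 3 splicing factors (Tra2a, Srsf7, Srsf9) and 4 temperature-responsive genes. Filled circles use 12 libraries and open diamonds leave out CT2 of day 1. Srpk2 lies at -0.11 log2 without CT2 of day 1, against -0.07 log2 with 12 libraries, and among the kinases its diamond alone has a whisker wholly below 0.

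No kinase passed a test between the 2 days of collection. Day 2 against day 1 differed by -0.04 to 0.04 log2 with SE of 0.03 to 0.06, and 0 of 6 passed edgeR's test, as did 0.0% of all genes (unadjusted p under 0.05, 0 of 6 members and 1.82% of all genes). DESeq2 and limma passed 0 of 6, with 0.0366% and 0% of all genes passing (limma on log2(TPM + 1)). The 24 h wave differed between the days for 0 of 6 members and 0.0% of all genes by edgeR, DESeq2 and limma. At an unadjusted p under 0.05 in edgeR's test the counts were 0 of 6 and 4.44%. Clk2 came closest, with a difference in wave of 0.18 ± 0.07 log2 (SE, adjusted p = 0.825), and its libraries at CT2 had 128.0 CPM on day 2 and 100.3 CPM on day 1.

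CLK genes are known for shifting between coding transcripts, exon 4 skipping and retained introns, so the mix of transcripts was examined through the mean transcript length that RSEM gives per gene and library, weighted by the abundance of each transcript. This length was 1530 to 1611 nt for Clk1, 1893 to 2026 nt for Clk2, 1972 to 2429 nt for Clk3, 1476 to 1577 nt for Clk4, 2637 to 2822 nt for Srpk1 and 3774 to 4188 nt for Srpk2. In limma over 11062 genes whose length varied, 0 of 6 members passed for differences among times, against 0.00904% of all genes. At an unadjusted p under 0.05, 2 of 6 members passed, Srpk1 (adjusted p = 0.656) and Srpk2 (adjusted p = 0.703), against 6.77% of all genes.

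Srpk1 had mean lengths of 2678 ± 11.7 nt at CT2, 2804 ± 25.4 nt at CT6, 2792 ± 22.3 nt at CT10, 2759 ± 64.1 nt at CT14, 2661 ± 34.9 nt at CT18 and 2742 ± 33.6 nt at CT22 (SD, n = 2 each). Both libraries of CT2 and both of CT18 were shorter than both of CT6 and CT10. Srpk2 had mean lengths of 4158.5 ± 42.5 nt at CT2, 3915 ± 19.6 nt at CT6, 3876 ± 144 nt at CT10, 4086 ± 65.0 nt at CT14, 4062 ± 56.1 nt at CT18 and 4038 ± 31.1 nt at CT22 (SD, n = 2 each). Its time mean was longest at CT2 and shortest at CT10. Between night and day, 0 of 6 members passed and 0.00904% of all genes did (limma, unadjusted p under 0.05, 0 of 6 and 7.67%). Clk1 came closest, at 1580 to 1611 nt by night and 1530 to 1595 nt by day, a difference of 0.02 ± 0.01 log2 (SE, adjusted p = 0.693). RSEM estimates transcript abundance from short fragments, and no exon junctions were counted, so the length does not say which exon or intron moved.

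**Figure D4:**
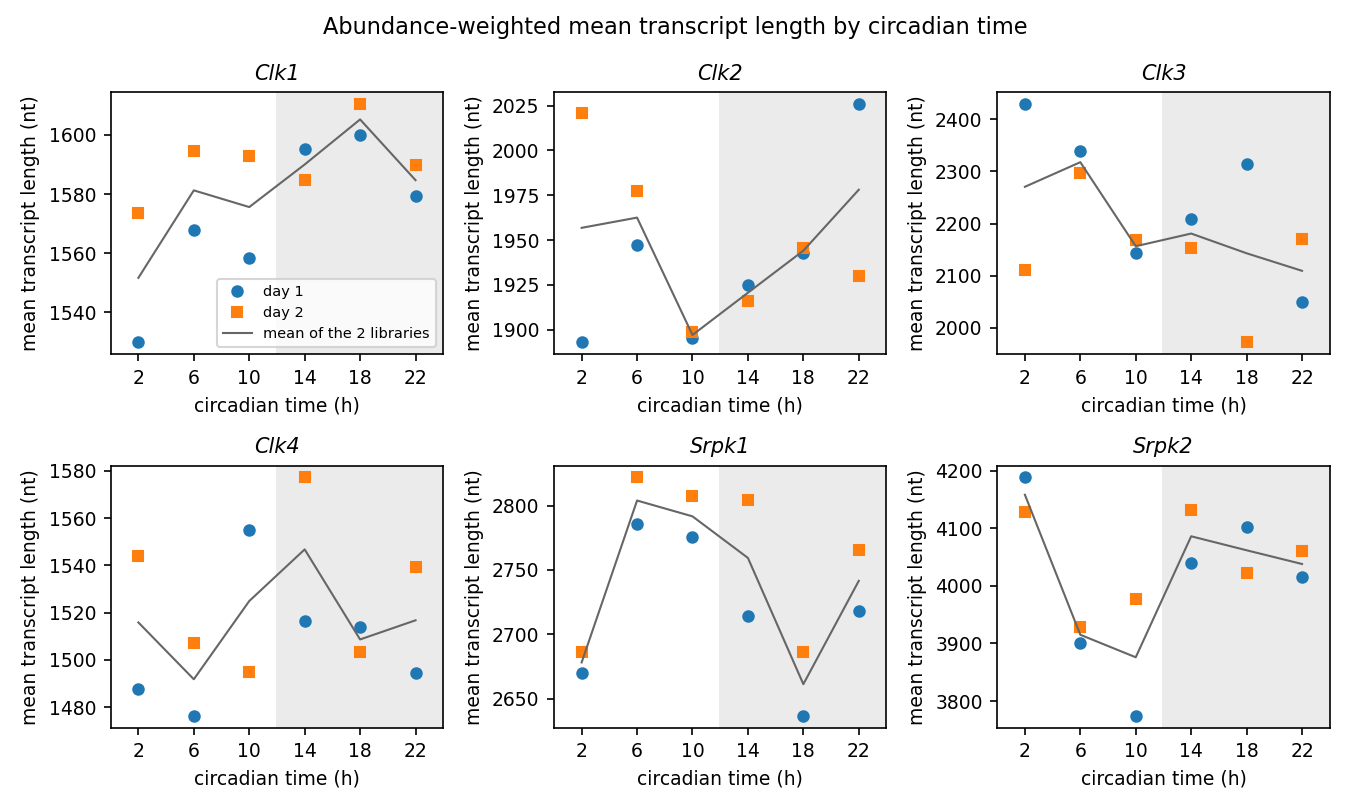
Abundance-weighted mean transcript length in nt of each kinase gene against circadian time in hours, with day 1 as circles, day 2 as squares, a line through the mean of the 2 libraries and the subjective night shaded. The axes do not start at 0. The 2 libraries of a time are often as far apart as the times, as for Clk3 at CT18.

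Among themselves the kinases fell into a pair and a group of 4 by their pattern over the 12 libraries, given here as a description of libraries that share depth and composition. Clk1 and Clk4 correlated at r = 0.79 on log2 CPM. Clk2, Clk3, Srpk1 and Srpk2 correlated with each other at 0.68 to 0.89. Correlations between the pair and the group were 0.20 to 0.43. Without the day 1 library of CT2 the pair stood at 0.82 and the group at 0.47 to 0.82. Correlations between the pair and the group then ran from 0.06 to 0.54, and that of Clk2 with Clk4 (0.54) exceeded those of Clk2 with Srpk2 (0.52) and Clk3 with Srpk2 (0.47). The division into a pair and a group of 4 was thus no longer clear without that library.

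The genes most like each kinase, by Pearson r of log2 CPM over the 12 libraries among 9657 genes, were Snx19 (0.824) and Klhl36 (0.814) for Clk1, Glb1 (0.848) and Dbt (0.847) for Clk4, and Trim39 (0.974) and Hdac7 (0.959) for Clk2. For Clk3 they were Ccdc134 (0.939) and Pank4 (0.924). For Srpk1 they were Brf1 (0.971) and Dnm2 (0.968), and for Srpk2 Cep97 (0.981) and Gigyf1 (0.968). Cep97 ran from 78.6 to 110 CPM (median 93.3 CPM) and Gigyf1 from 88.6 to 139 CPM (median 112 CPM). Without the day 1 library of CT2 the same 12 correlations ran from 0.80 to 0.97. These genes were picked for the highest r in these same libraries, so the values are a description and no test.

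Of the 12 relations of the 6 kinases with Cirbp and Hsph1, 1 passed its test, that of Srpk2 with Cirbp, the gene of a cold-inducible RNA-binding protein. Whether Srpk2 differed in this from the other kinases was not tested. Cirbp had 50.4 to 75.7 CPM in the 6 night libraries (median 68.6 CPM), against 68.6 to 126.7 CPM in the 6 day libraries (median 106.7 CPM). Its lowest day library was the CT2 library of day 1, as for Srpk2. Over the 12 libraries Srpk2 and Cirbp correlated at Pearson r = 0.77 (two-sided permutation p = 0.00267, adjusted p = 0.032 over the 12 relations). Spearman's rho was 0.85 (permutation p = 0.00084). On leaving out the 2 libraries farthest from the median of Cirbp, CT6 of day 2 and CT10 of day 1, r was 0.67 (permutation p = 0.0315). Within day 2 r was 0.91 and within day 1 it was 0.75, and without the day 1 library of CT2 it was 0.90. The points lay partly in separate night and day clusters. Among the 6 night libraries r was 0.70 (exact permutation p = 0.139, adjusted p = 0.308) and among the 6 day libraries, which include CT2 of day 1, it was 0.95 (exact permutation p = 0.0278, adjusted p = 0.122 over 12 such relations with Cirbp), so the relation did not pass within either. Among the same 6 day libraries Clk2 correlated with Cirbp at 0.89 (exact permutation p = 0.0167, adjusted p = 0.122), Srpk1 at 0.88 (exact permutation p = 0.0306, adjusted p = 0.122) and Clk3 at 0.77 (exact permutation p = 0.0514, adjusted p = 0.154), so high values by day were not limited to Srpk2. The day 1 library of CT2 was the lowest by day for Cirbp and for each of these kinases. Correlations within the day were not computed without it. Over all times, leaving out 1 library at a time kept r of Srpk2 with Cirbp between 0.69 and 0.90. But the adjusted p of the permutation test was above 0.05 in 8 of 12 cases, with a highest value of 0.186 without CT10 of day 1. The 12 libraries are 6 times sampled on 2 days, so a shared difference among times can make these p-values too small.

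**Figure D5:**
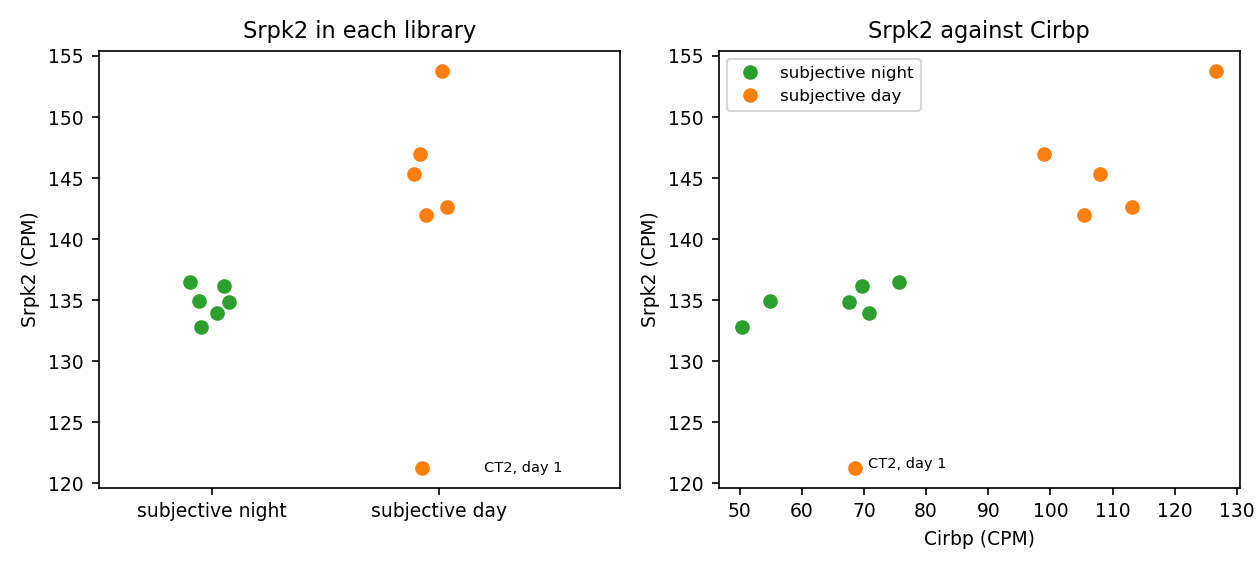
Left, Srpk2 in CPM in the 6 subjective night and 6 subjective day libraries. Right, Srpk2 against Cirbp in CPM in the same libraries. The night libraries sit together between 132.8 and 136.5 CPM of Srpk2, 5 day libraries lie above them, and the day 1 library of CT2 lies below all others. The axes do not start at 0.

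The other 11 relations did not pass. With Cirbp the other kinases correlated at r = 0.10 (Clk1) to 0.45 (Srpk1), with adjusted p of 0.5265 to 0.953 in permutation tests. With Hsph1 the 6 kinases correlated at -0.44 (Srpk2) to 0.05 (Clk1), with adjusted p of 0.5265 to 0.953 in permutation tests. For Srpk2 and Hsph1 the rank correlation was rho = -0.69 (permutation p = 0.0160). Srpk2 and Hsph1 correlated at r = -0.74 within day 2 and -0.36 within day 1, and at -0.67 without the day 1 library of CT2.

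Temperature-responsive genes changed in the same libraries. Of 6 tested genes (Cirbp, Rbm3, Hsph1, Hspa8, Dnajb1 and Hspa1b), 5 passed edgeR's test of circadian times, 5 passed at CT14 and 6 passed between night and day, 4 higher and 2 lower at night. The 2 lower ones were Cirbp (-0.68 ± 0.10 log2, adjusted p = 0.0183) and the cold-inducible Rbm3 (-0.42 ± 0.05 log2, adjusted p = 0.00930). Among the higher ones were Hsph1 (0.84 ± 0.05 log2, adjusted p = 9.47e-05) and the co-chaperone Dnajb1 (0.39 ± 0.05 log2, adjusted p = 0.00623). Between night and day Hsph1 passed in 21 of 22 alternatives, Dnajb1 in 20, Rbm3 in 16 and Cirbp in 11. Among times Hsph1 passed in 21 of 22, Dnajb1 in 18, Rbm3 in 8 and Cirbp in 5, and at CT14 Hsph1 and Dnajb1 passed in 21 of 21, Cirbp in 9 and Rbm3 in 6. With all 12 libraries Cirbp was the one that did not pass among times (adjusted p = 0.0934) and Rbm3 the one at CT14 (adjusted p = 0.0881). With the day as a block, Rbm3 did not pass among times (adjusted p = 0.0557) and Cirbp did not pass at CT14 (adjusted p = 0.0676). This list was known from these libraries to move, so its count is no independent evidence.

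The SR proteins, the substrates of both kinase families, gave 0 of 11 passing genes in the test of times and 0 of 11 between night and day, by edgeR, against 0.256% and 1.64% of all genes. At an unadjusted p under 0.05, 2 of 11 passed among times, near the 12.7% of all genes, and 4 of 11 between night and day, against 18.5% of all genes. The median night minus day difference was 0.05 log2, and -0.006 log2 over all genes tested. Srsf7 had 255 and 267 CPM at CT14, against 206 to 253 CPM in the 10 other libraries (0.20 ± 0.05 log2, adjusted p = 0.0804). Srsf9 had 49.4 to 53.0 CPM at night (median 50.1 CPM), against 41.8 to 46.8 CPM by day (median 45.5 CPM), without overlap (0.18 ± 0.04 log2, adjusted p = 0.0621 in edgeR's test). Without the day 1 library of CT2, Srsf7 differed by 0.21 log2 at CT14 and Srsf9 by 0.15 log2 between night and day. Without the day 2 library of CT2 these differences were 0.18 and 0.20 log2. Over all alternatives, Srsf7 passed at CT14 in 5 of 21 and Srsf9 passed between night and day in 5 of 22.

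Of 17 SR-related splicing factors, 1 passed in the test of times, at CT14 and between night and day, and it was Tra2a in each, a splicing activator that resembles SR proteins. Tra2a had 141 to 158 CPM in the night libraries (median 148 CPM), against 108 to 137 CPM in the day libraries (median 124 CPM). The groups did not overlap. It rose by 0.27 ± 0.04 log2 at night (edgeR, adjusted p = 0.00962) and by 0.24 ± 0.05 log2 at CT14 (adjusted p = 0.0358), and passed the test of times (adjusted p = 0.0476). The last 2 calls were fragile. The call among times was lost without any 1 library of CT6, CT10, CT14, CT18 or CT22 (adjusted p = 0.0818 to 0.313) and passed in 6 of 22 alternatives. The call at CT14 was lost without any 1 library of CT10, CT14, CT18 or CT22 (adjusted p = 0.0506 to 0.429) and passed in 9 of 21. The sign was the same under all alternatives, but the night call was lost without any 1 of CT10 of day 1, either library of CT14 or of CT18, or CT22 of day 1 (adjusted p = 0.0511 to 0.0589), and it passed in 14 of 22 alternatives. With the day as a block, Tra2a did not pass among times (adjusted p = 0.0993) or at CT14 (adjusted p = 0.0579). Luc7l2, a U1 snRNP-associated factor and second by p in this list, ran from 235 to 382 CPM and did not pass (adjusted p = 0.214 in the test of times).

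Of 10 tested related kinases of the same CMGC group (DYRK and HIPK families, Srpk3 and Prpf4b; Hipk4 was too low), 0 passed edgeR's test of times. The smallest p belonged to Dyrk1b, at 7.69 to 11.2 CPM (adjusted p = 0.294), and Hipk2, at 22.0 to 33.3 CPM (adjusted p = 0.353). Of 8 genes for the phosphatases that remove phosphate from SR proteins and the transportins that import them, 0 passed. Ppp1cb, a catalytic subunit of protein phosphatase 1, came closest, at 194 to 206 CPM by night and 165 to 196 CPM by day (0.16 ± 0.03 log2, adjusted p = 0.0514 between night and day). The importin gene Tnpo1 had 178 to 204 CPM by night and 163 to 193 CPM by day (adjusted p = 0.335 in edgeR's test).

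Promoters of 5 of the 6 genes were found in RefSeq on GRCm38.p6 as windows of 250 bases before to 50 after a start, and 3 motifs were searched on both strands. Clk2 held 1 copy of the E-box CACGTG, the element bound by the CLOCK and BMAL1 proteins, 159 bases before its start, and so did 7.15% of 32851 promoters. Clk4 held 1 copy of the cyclic AMP response element TGACGTCA, 65 bases before its start, and so did 1.79% of promoters. The heat shock element, searched as blocks of GAA, TTC and GAA set 2 bases apart, was in none of the windows of these 5 genes and in 0.603% of promoters. A match describes the letters only, and whether it bears on the levels of Clk2 or Clk4 was not tested.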

How the data were processed

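RNA was measured in 12 libraries. The submitters' processing notes name STAR 2.5.1b and RSEM 1.2.28, with trimming by Trimmomatic 0.35, demultiplexing by bcl2fastq 2.19 and the build GRCm38. For the gene annotation, the version is not given in the sources used here. Raw read counts per gene in the layout of STAR were deposited by the authors. RSEM output was deposited too, giving estimated counts, TPM, FPKM and lengths for each gene. The deposited TPM and FPKM are scaled to transcript length and library. FPKM was used only in an alternative for the order of the kinase levels, as were counts per kb of length. The stranded counts of column 4 were used, in which 11.4% to 13.9% of reads matched no gene, against 77.6% to 80.9% in column 3. Rows that name no gene held 29.3% to 31.2% of reads and were left out. Of 50600 identifiers, 50376 matched a symbol in GENCODE M21.

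Counts were tested with edgeR 4.0.16 in R 4.3.3 (filterByExpr by time, 16396 genes kept, TMM, quasi-likelihood F tests, Benjamini-Hochberg adjustment over all genes, threshold 0.05). The 24 h wave was a cosine and a sine of 24 h. Lengths were tested on the log2 scale with limma 3.58.1. DESeq2 1.42.0, rounded expected counts, unstranded counts, limma on log2(TPM + 1) and on log2(TPM + 0.1), the filter, the scaling and left-out libraries were alternatives. Chosen after seeing the data were the overlap of night and day, the spread, the likeness and the correlation between kinases without CT2 of day 1, and correlations within night and within day. Permutation tests (100000 resamples for correlations) used SciPy 1.17.1. Log2 CPM used a prior count of 2. The tests were checked on simulated counts. The genes changed were picked among the more abundant ones, and no simulated library stood apart as CT2 of day 1 did. A true difference of 0.2 log2 was recovered in 14% of the changed genes between night and day and in 2% at CT14. At 0.3 log2 the shares were 78% and 50%. For the 24 h wave, an amplitude of 0.1 log2 was recovered in 0%, 0.2 log2 in 66% and 0.3 log2 in 98%. In the measured counts 0 of 16396 genes passed the wave test.

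By the labels a replicate number is a collection day, and libraries of 1 day are paired by it. Between times (15 pairs), the deviations of day 2 from day 1 had correlations of -0.60 to 0.35 (median 0.08, 6 above 0.1).

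The 6 kinases and all gene lists were chosen with earlier results of these data known. Besides the kinases, the text names the 2 genes most like each kinase, the 2 genes of smallest p among times in each list, and Cirbp, Rbm3, Hsph1, Hspa8, Cd8a and Cd8b1. For Cd8a and Cd8b1 only the sum of the list is given, and Hspa8 is given only in the count of its list.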

Additional observations from a re-analysis of the deposited data

Results flagged for a closer look

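In each kinase the 6 night and the 6 day libraries were searched for a library far from the rest of its group, in CPM and in mean transcript length, which made 24 groups. Of these, 2 groups held such a library, and chance alone gives about 1 such group in 20.

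Srpk2 had 121.2 CPM in the day 1 library of CT2, far below the other 5 day libraries, of which the nearest had 141.9 CPM and the highest 153.8 CPM. The marker sum of monocytes and macrophages was 820 CPM in this library, against 276 to 1198 CPM over all 12, and its part in the Srpk2 value was not tested.

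Clk2 had a mean transcript length of 2026 nt in the day 1 library of CT22, far above the other 5 night libraries, of which the nearest had 1946 nt and the lowest 1916 nt. Among day libraries, the day 2 library of CT2 had 2021 nt.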

How the results depend on the processing

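Counts of kinases passing stayed the same in 175 of 186 alternatives. Exceptions were 1 passing kinase (Srpk2) between night and day without both CT2 libraries, and ranges of 0 to 1 on leaving out single libraries for night and day, for circadian times and for the correlations. With the day as a replicate block 0 kinases passed in each of the 6 tests so fitted, as before, while the genes passing between night and day numbered 92 with the block and 269 without it. They numbered 521 with DESeq2, 1554 with no filter on low counts and 21 with limma on log2(TPM + 1). Among times 42 genes passed, against 516 with DESeq2, 2146 with no filter and 20 with the block.

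Of 1180 alternatives for single kinases, 1099 kept sign and call, and 70 reversed sign, none of them a value that had passed. At CT14 leave-one-out ranges were -0.013 to 0.018 log2 for Clk1, -0.040 to 0.072 for Clk2 and -0.046 to 0.071 for Clk3. There Clk1 stood at -0.016 with expected counts, -0.0199 and -0.020 with the TPM pseudocounts of 1 and 0.1, and -0.00095 without both CT2 libraries, where Clk3 was -0.0096 (-0.0048 with expected counts). Between night and day leave-one-out ranges were -0.0100 to 0.020 log2 for Clk1, -0.050 to 0.068 for Clk2, -0.018 to 0.031 for Clk3 and -0.060 to 0.0080 for Srpk1. Clk1 was -0.0032 with expected counts, Clk4 0.0064 with either pseudocount and 0.0024 without both CT14 libraries, and Srpk1 0.0365 and 0.0368 with the pseudocounts. Without both CT2 libraries Clk2 was -0.018 and Clk3 -0.036. For day 2 against day 1 the leave-one-out ranges were -0.0016 to 0.076 for Clk2, -0.0017 to 0.050 for Clk3, -0.013 to 0.045 for Srpk1 and -0.0039 to 0.063 for Srpk2, and without both CT2 libraries Clk2 was -0.021, Srpk1 -0.022 and Srpk2 -0.0087. Transcript length of Clk2 between night and day ran from -0.0090 to 0.022 log2. Correlations with Hsph1 ran from -0.034 to 0.17 for Clk1, -0.13 to 0.18 for Clk2, -0.23 to 0.14 for Clk3, -0.42 to 0.038 for Clk4 and -0.18 to 0.22 for Srpk1, and that of Clk1 with Cirbp from -0.085 to 0.32. On log2(TPM + 1) the correlations with Hsph1 were -0.095 for Clk1, 0.12 for Clk3 and 0.052 for Srpk1. The cause of these changes was not tested. With 12 libraries the SE of a night minus day difference was 0.04 to 0.06 log2 for a kinase. This limits the differences that these libraries can show.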
